A study of Caenorhabditis elegans with 44 samples.

Results

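The 8 genes described here form the core of programmed cell death in Caenorhabditis elegans and were chosen by name: egl-1, ced-13, ced-9, ced-4, ced-3, cep-1, ced-1 and ced-10. They were taken from 11430 genes with values in the series. Of the 8, 6 were analysed after 8 h of treatment and 7 after 16 h and 24 h. egl-1 was not analysed at 8 h, and ced-13 was not analysed at any time.

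The series is poly(A) RNA-seq of whole worms grown for 51 h at 20 °C to young adulthood and then moved, about 120 worms per condition, to plates with auxin or with ethanol for a further 8, 16 or 24 h. All 44 sample titles carry the tag NHS, which the labels do not spell out. JTL621, called the degron strain here, has hsf-1, the gene of the heat shock transcription factor HSF-1, fused to an auxin-inducible degron (AID) and GFP. The TIR1-only strain (CA1199) has untagged hsf-1. Both strains carry unc-119(ed3) and the insertion ieSi38, which expresses TIR1 fused to mRuby from the sun-1 promoter and rescues unc-119 with the Caenorhabditis briggsae gene. TIR1 is the plant ubiquitin ligase subunit that marks degron-tagged protein for degradation when auxin is present, and the sun-1 promoter is active in the germ line, so HSF-1 protein was targeted there while the RNA came from whole animals. Each of the 4 combinations of strain and plate had 4 libraries at 8 h and at 16 h and 3 libraries at 24 h, 44 in all.

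In the worm, the BH3-only proteins EGL-1 and CED-13 bind the Bcl-2 homolog CED-9 and release the Apaf-1 homolog CED-4, which activates the caspase CED-3. In the adult hermaphrodite, many developing oocytes die in this way during meiotic prophase, and that physiological death needs CED-4 and CED-3 but not EGL-1. DNA damage adds germ cell deaths through CEP-1, the p53 homolog, which raises transcription of egl-1 and ced-13. Corpses are taken up by the gonadal sheath cells with the receptor CED-1 and the Rac GTPase CED-10.

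Counted reads per library ranged from 13.3 to 24.4 M after 24 h of treatment, from 31 to 57.7 M after 16 h and from 12.5 to 50.7 M after 8 h (M, mega). Levels are given as CPM, a library's reads scaled to its size as in the deposited values. The degron acts on protein, so hsf-1 RNA is no check of depletion. It rose from 51.2 ± 3.34 CPM on ethanol to 70.8 ± 1.16 on auxin at 16 h (SD, n = 4 each) in the degron strain, by 0.47 on the log2 scale (limma, adjusted p = 1.24e-06). On ethanol at 16 h it was lower than in the TIR1-only strain, at 67.9 ± 2.45 CPM (log2 difference −0.41, adjusted p = 0.00203, and 0.0571 in a fit of these groups only). RNA of the chaperone gene hsp-90, a known HSF-1 target, fell in the same strain from 4362 ± 236 to 1855 ± 173 CPM by 8 h (SD, n = 4, log2 change −1.24, adjusted p = 1.34e-04).

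egl-1, the activator, and ced-9, the inhibitor it binds, fell at 16 h and at 24 h in the degron strain on auxin compared with ethanol. The caspase ced-3, its activator ced-4, the p53 homolog cep-1 and the engulfment genes ced-1 and ced-10 did not pass the test at any time. Some alternative fits called ced-3 at 16 h and ced-4 and cep-1 at 24 h, as described beside each gene. Thus 2 of 7 members tested were called at 16 h, where 42.2% of all 10173 genes tested were called, and 2 of 7 at 24 h, where 38.4% of 10411 were called. With the replicate number as a block at 24 h the members called were 4 of 7, egl-1, ced-9, ced-4 and cep-1, beside 54% of all genes. At 8 h, 0 of 6 members were called by limma, against 0.283% of 10971 genes. An unadjusted limma p under 0.05 was found for 1 of the 6, ced-9, and for 454 of the 10971 genes. A call means a limma p adjusted by Benjamini-Hochberg over all genes tested at that time below 0.05. Since the RNA came from whole animals, fewer cells of a type and less RNA per cell cannot be told apart.

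**Figure D1:**
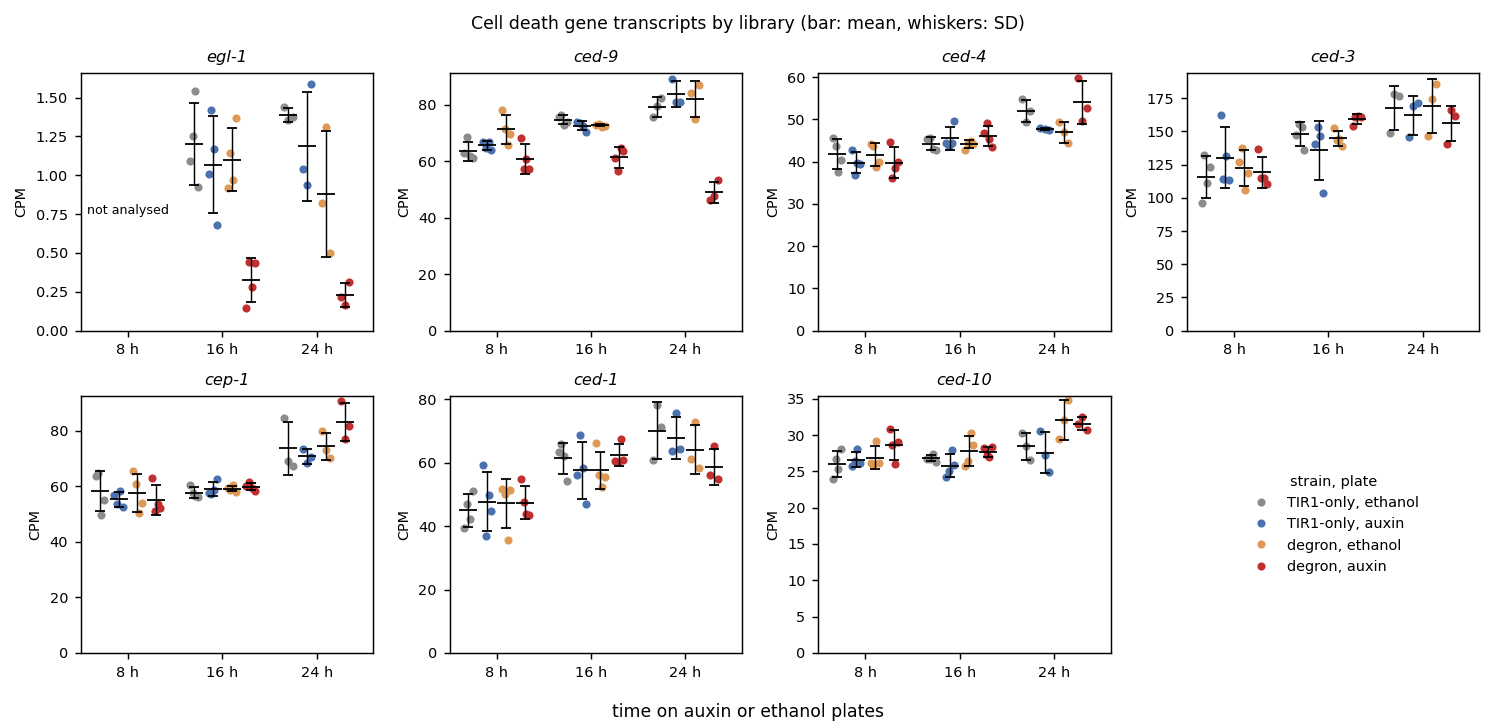
Level in CPM (vertical axis, from 0, with its own scale for each gene) of the 7 members with values, by time on the plates, with 1 point per library, bars for the group mean and whiskers for the SD. In the degron strain on auxin (red), egl-1 lies below every other library of its time at 16 h and 24 h, and ced-9 does the same at both times, at 56.4 to 64.8 CPM and at 46.3 to 53.3 CPM.

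egl-1 encodes the BH3-only activator and lies on chromosome V from 14431308 to 14432359 on the minus strand (WBcel235). It was the least abundant of the 7 members analysed at 16 h and 24 h. At 16 h the degron strain had 0.918, 1.15, 0.972 and 1.37 CPM on ethanol and 0.145, 0.443, 0.284 and 0.434 CPM on auxin. The TIR1-only strain had 1.09, 1.25, 1.54 and 0.926 CPM on ethanol and 1.0, 1.42, 1.17 and 0.681 CPM on auxin. All 4 degron libraries on auxin were thus below all 12 others. The fitted log2 change in the degron strain was −1.70 (95% interval −2.31 to −1.09, limma, adjusted p = 2.2e-04), and that in the TIR1-only strain was −0.19 (−0.80 to 0.43, adjusted p = 0.828). The auxin effects of the strains differed by −1.51 (adjusted p = 0.0114), where 29.6% of all genes passed this test of the difference, and under quantile normalization the adjusted p was 0.081.

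The same order was seen for egl-1 at 24 h. The degron strain had 0.823, 1.31 and 0.501 CPM on ethanol and 0.214, 0.162 and 0.315 CPM on auxin, and the TIR1-only strain ranged from 1.35 to 1.44 CPM on ethanol and from 0.934 to 1.58 CPM on auxin. The 3 degron libraries on auxin were again the lowest of the 12. The log2 change was −1.47 (95% interval −2.16 to −0.78, limma, adjusted p = 0.00272) in the degron strain and −0.24 (−0.93 to 0.45, adjusted p = 1) in the TIR1-only strain. The difference between these effects, −1.22, did not pass (interval −2.20 to −0.25, adjusted p = 0.0669), where 24.1% of all genes did. Without the degron ethanol library numbered 3, the lowest of its group at 0.501 CPM, it passed with an adjusted p of 0.0232.

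egl-1 rested on few reads. At 16 h the degron libraries on auxin held 6, 17, 13 and 18 egl-1 reads, 54 in all, against 214 on ethanol. At 24 h they held 4, 3 and 7, 14 in all, against 46 on ethanol. Pooled over a group, this gave 0.323 CPM (95% exact Poisson interval 0.243 to 0.422) against 1.13 (0.983 to 1.29) at 16 h, and 0.236 (0.129 to 0.396) against 0.903 (0.661 to 1.2) at 24 h, where the intervals cover counting error only. The gene passed the low-value filter through the 3 other groups and not through the degron libraries on auxin. Because 2 reads had been added to each value before the deposited logarithm was taken, the fitted changes understate a fall from so low a level, and with 1 CPM added instead they were −0.66 and −0.59.

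ced-9 encodes the Bcl-2 homolog that holds CED-4 inactive. It lies on chromosome III from 10335172 to 10337522 on the plus strand. At 16 h the degron strain had 72.8, 73.1, 72.2 and 72.6 CPM on ethanol and 61.0, 56.4, 64.8 and 63.5 CPM on auxin. The TIR1-only strain had 75.6, 76.5, 72.9 and 73.9 CPM on ethanol and 73.8, 73.6, 72.6 and 70.4 CPM on auxin. The 12 control libraries thus spanned 70.4 to 76.5 CPM, and none reached down to the highest degron library on auxin. The level fell by 15.6% in the degron strain, from 72.7 ± 0.357 to 61.4 ± 3.71 CPM (SD, n = 4), a log2 change of −0.24 (95% interval −0.33 to −0.16, limma, adjusted p = 1.04e-04). In the TIR1-only strain the log2 change was −0.04 (−0.12 to 0.04, adjusted p = 0.702), and the difference between the strains' effects was −0.20 (adjusted p = 0.0106).

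At 24 h the ced-9 change was larger in size. The degron strain had 84.3, 74.9 and 87.1 CPM on ethanol and 46.3, 47.6 and 53.3 CPM on auxin. The TIR1-only strain had 75.6, 79.5 and 82.5 CPM on ethanol and 88.9, 80.9 and 81.0 CPM on auxin. The degron libraries on auxin stood apart from the 9 others, the lowest of which was at 74.9 CPM. The level fell by 40.2%, from 82.1 ± 6.38 to 49.0 ± 3.72 CPM (SD, n = 3), a log2 change of −0.74 (95% interval −0.93 to −0.56, limma, adjusted p = 2.21e-05), and the strains' auxin effects differed by −0.82 (adjusted p = 3.93e-04). The interval at 24 h lies below the whole interval at 16 h, but the times were normalized in separate tables and the difference between them was not tested.

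At 8 h ced-9 had 78.1, 71.5, 65.7 and 69.7 CPM in the degron strain on ethanol and 68.2, 57.2, 60.6 and 57.1 CPM on auxin, and these groups overlapped. The log2 change was −0.23 (95% interval −0.40 to −0.06, limma, unadjusted p = 0.0112, adjusted p = 0.909). It passed in 1 alternative, with libraries weighted by quality (adjusted p = 0.0329). Over the 16 libraries at 8 h, ced-4 ranged from 36.0 to 45.7 CPM, ced-3 from 96.2 to 163, cep-1 from 49.6 to 65.6, ced-1 from 35.8 to 59.4 and ced-10 from 24.0 to 30.9, and for each of them the degron groups on auxin and ethanol overlapped.

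mev-1, which encodes a cytochrome b subunit of mitochondrial complex II, ends 3 bp upstream of ced-9 on the same strand, and the pair is transcribed as 1 operon. At 16 h mev-1 had 141, 135, 115 and 124 CPM in the degron strain on ethanol and 150, 157, 157 and 158 CPM on auxin. It rose by 0.28 on the log2 scale (95% interval 0.14 to 0.41, limma, adjusted p = 0.00261), while the TIR1-only change was −0.08 (adjusted p = 0.674). At 24 h its log2 change was 0.10 (−0.14 to 0.33, adjusted p = 0.511), and the groups overlapped.

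The mean log2 level of ced-9 relative to mev-1 in the same library went from −0.82 on ethanol to −1.34 on auxin at 16 h in the degron strain. The difference was −0.52, with groups that did not overlap (two-sided exact permutation p = 0.0286, the smallest that 4 against 4 libraries allow). At 24 h it went from −0.40 to −1.24, again with no overlap (exact permutation p = 0.1, the smallest that 3 against 3 allow). In the TIR1-only strain the auxin minus ethanol difference of this ratio was 0.04 at 16 h and 0.13 at 24 h (exact permutation p = 0.571 and 0.2). Reads at the boundary of the pair were assigned by a rule not given in the sources used here.

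**Figure D2:**
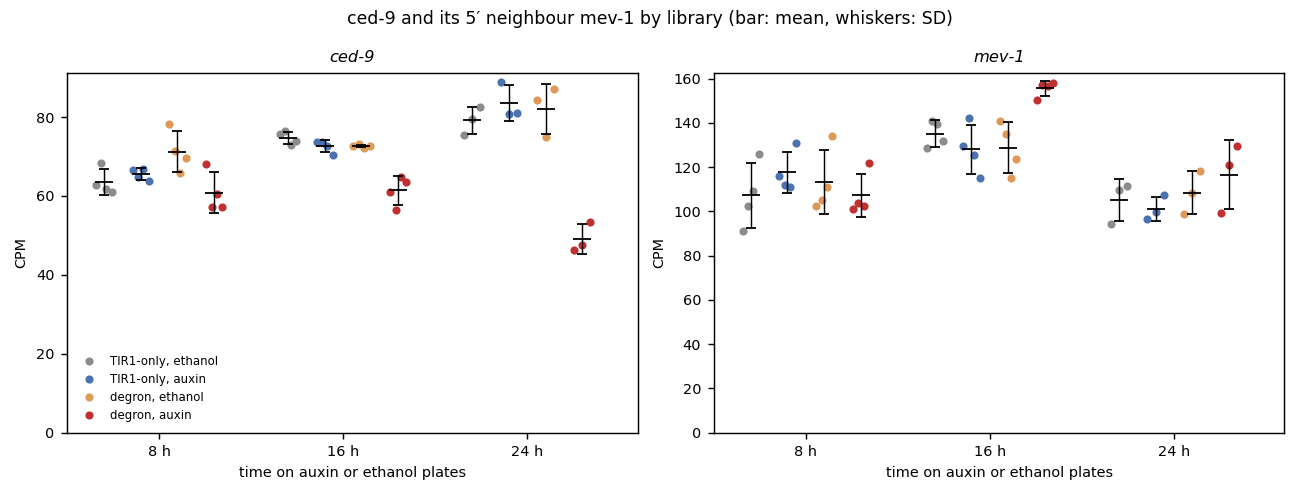
Level in CPM (vertical axes from 0) of ced-9 and of mev-1, which ends 3 bp before it on the same strand, by time on the plates, with 1 point per library, group means as bars and SD as whiskers. On auxin the degron strain (red) has the lowest ced-9 libraries at 16 h and 24 h and the highest mev-1 libraries at 16 h, from 150 to 158 CPM.

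Markers of oocytes fell beside ced-9 and egl-1. Of 9 oocyte markers, 7 fell at 16 h (median log2 change −0.42) and 8 at 24 h (median −1.53), against a median over all genes of −0.03 and −0.01. These were 77.8% and 88.9% of the list, against 42.2% and 38.4% of all genes called. The difference between the strains' auxin effects passed for 3 of 9 at 16 h (33.3%, median −0.18) and 8 of 9 at 24 h (88.9%, median −1.52). For all genes those shares were 29.6% and 24.1%. The summed level of the 9 was 7586 to 8744 CPM in degron libraries on auxin at 16 h, where it was 9879 to 11219 on ethanol, 7905 to 11762 in TIR1-only libraries on auxin and 10404 to 12131 on ethanol. At 24 h it was 3402 to 4942 CPM against 9684 to 11760, 8987 to 12529 and 9074 to 13231 in the same groups. egg-1, which encodes an oocyte surface protein needed for fertilization, fell from 1095 ± 42.4 to 290 ± 20.1 CPM at 24 h (SD, n = 3, log2 change −1.92, adjusted p = 6.97e-09).

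Counts of the marker lists that follow are to be read against the 42.2% of all genes called at 16 h and 38.4% at 24 h. Of 5 gonadal sheath markers, inx-8 and inx-9 fell at 16 h (40% of the list) and inx-8 at 24 h (20%). Their summed level was 82.0 to 87.3 CPM in degron libraries on auxin against 88.3 to 107 in the 3 other groups at 16 h, and 98.1 to 115 against 122 to 150 at 24 h. Of 10 germline markers, 3 rose at 16 h, glh-1 and nos-3 among them, and at 24 h 1 rose, glh-1, and 2 fell, wago-1 among them, 30% of the list each time. Their summed level was 4283 to 4454 CPM on auxin against 3761 to 4387 in the other groups at 16 h, and 3606 to 4128 against 3711 to 4682 at 24 h. Of 9 intestine markers, 4 fell at 16 h, with pho-1, vha-6 and ifb-2 among them, and 4 at 24 h, with pho-1 and vha-6 among them, 44.4% of the list each time. Among 8 neuron markers, 0 were called at 16 h by limma, and unc-31, egl-3 and sbt-1 rose at 24 h (37.5% of the list). Among 5 muscle markers unc-27 fell at 16 h (20% of the list), and of the 2 hypodermis markers tested then, lin-26 and elt-3, neither was called. Sperm markers were analysed at 8 h only, where none of the 4 tested was called. With 1 library left out, the limma adjusted p rose as high as 0.0562 for vha-6 and 0.104 for unc-27 at 16 h, and 0.0979 for egl-3 and 0.0519 for sbt-1 at 24 h. At 24 h 0 of the 5 muscle markers were called by limma, and all 5 had log2 changes above 0 (0.20 to 0.73, median 0.42). Of the 5, 1 had an unadjusted limma p under 0.05, as had 4868 of the 10411 genes tested. With the replicate block at 24 h, inx-9 and ifb-2 also fell (adjusted p = 0.00269 and 4.91e-04), nos-3 also rose (0.0168), and 3 muscle markers rose, among them unc-27 (0.00824), which had fallen at 16 h. Every marker with values was above 0 in each group. The test of the difference between the strains' auxin effects was also read, without the block. At 16 h it passed for 2 sheath, 3 germline, 2 intestine, 0 neuron and 0 muscle markers, where 29.6% of all genes passed. At 24 h it passed for 1 sheath, 1 germline (higher), 3 intestine, 1 neuron and 0 muscle markers, where 24.1% of all genes passed. The falls of wago-1 at 24 h and of unc-27 at 16 h did not pass it. The part of these marker changes in the results for ced-9 and egl-1 was not tested.

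ced-4 encodes the Apaf-1 homolog that activates CED-3. It lies on chromosome III from 4852325 to 4855171. At 24 h it had 49.2, 47.0 and 44.4 CPM in the degron strain on ethanol and 59.7, 49.6 and 52.6 CPM on auxin, groups that did not overlap. The TIR1-only strain had 54.7, 49.5 and 52 CPM on ethanol and 47.9, 47.8 and 47.5 CPM on auxin, so the degron auxin libraries lay within or above the TIR1-only ethanol range. The log2 change in the degron strain was 0.20 (95% interval 0.02 to 0.38, limma, adjusted p = 0.079) and did not pass. With the replicate number as a block (same-numbered libraries deviated together at 24 h), it passed (adjusted p = 0.0162), as did the difference between the strains' effects (0.32, adjusted p = 0.0659 without and 0.00965 with the block). Without the degron auxin library numbered 2 the adjusted p of the degron change was 0.0476. In all, 3 of 17 alternative fits called this change and 3 of 21 called the difference between the strains' effects. At 16 h the log2 change was 0.06 (−0.04 to 0.16) and at 8 h −0.07 (−0.26 to 0.13).

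ced-3, the caspase gene, lies on chromosome IV from 13198261 to 13204137. At 16 h it had 152, 143, 145 and 139 CPM in the degron strain on ethanol and 154, 161, 161 and 161 CPM on auxin, which did not overlap. The log2 change of 0.14 did not pass (95% interval −0.05 to 0.33, limma, adjusted p = 0.225). It passed when the fit held the compared groups only (adjusted p = 0.013) and with quality weights (0.0432). A TIR1-only library on auxin at 103 CPM, the lowest of the 16, is part of the pooled spread. The effect of leaving out that library alone was not tested for this change. At 24 h the groups overlapped, at 146, 174 and 186 CPM on ethanol and 141, 166 and 161 CPM on auxin, and the log2 change was −0.11 (−0.35 to 0.13, adjusted p = 0.469).

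Of the members' groups in the degron strain, 3 of 7 did not overlap between auxin and ethanol at 16 h (egl-1, ced-9, ced-3) and 3 of 7 at 24 h (egl-1, ced-9, ced-4). The same was true of 40.0% and 49.4% of all genes tested. At 8 h the count was 0 of 6, against 3.38%.

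cep-1 encodes the p53 homolog and lies on chromosome I from 8324286 to 8328859. At 16 h its 16 libraries spanned 56.2 to 62.5 CPM, and the degron log2 change was 0.02 (95% interval −0.06 to 0.09, limma, adjusted p = 0.752). At 24 h it had 79.8, 73 and 70.2 CPM on ethanol and 90.5, 76.9 and 81.7 CPM on auxin in the degron strain, which overlapped. The log2 change of 0.16 did not pass (−0.06 to 0.37, adjusted p = 0.231), but did with the replicate block (adjusted p = 0.0384). The difference between the strains' effects, 0.21, passed in neither fit (adjusted p = 0.32 and 0.0653).

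ced-1 encodes the engulfment receptor and lies on chromosome I from 11851554 to 11868105. In the degron strain it had 66.2, 56.1, 52.5 and 55.5 CPM on ethanol and 60.6, 60.3, 67.6 and 60.7 CPM on auxin at 16 h. At 24 h it had 61.3, 72.9 and 58.2 CPM on ethanol and 56.0, 65.3 and 54.9 CPM on auxin. The groups overlapped at both times, and the log2 changes were 0.12 (95% interval −0.09 to 0.33) and −0.12 (−0.38 to 0.13).

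ced-10 encodes the Rac GTPase that moves the membrane around the corpse and lies on chromosome IV from 3506328 to 3509527. Its 16 libraries at 16 h lay between 24.2 and 30.3 CPM and its 12 at 24 h between 25 and 34.9 CPM. The degron log2 change was −0.00 (95% interval −0.12 to 0.11) at 16 h and −0.02 (−0.24 to 0.19) at 24 h. These intervals exclude a fall as large as that of ced-9 at 24 h.

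**Figure D3:**
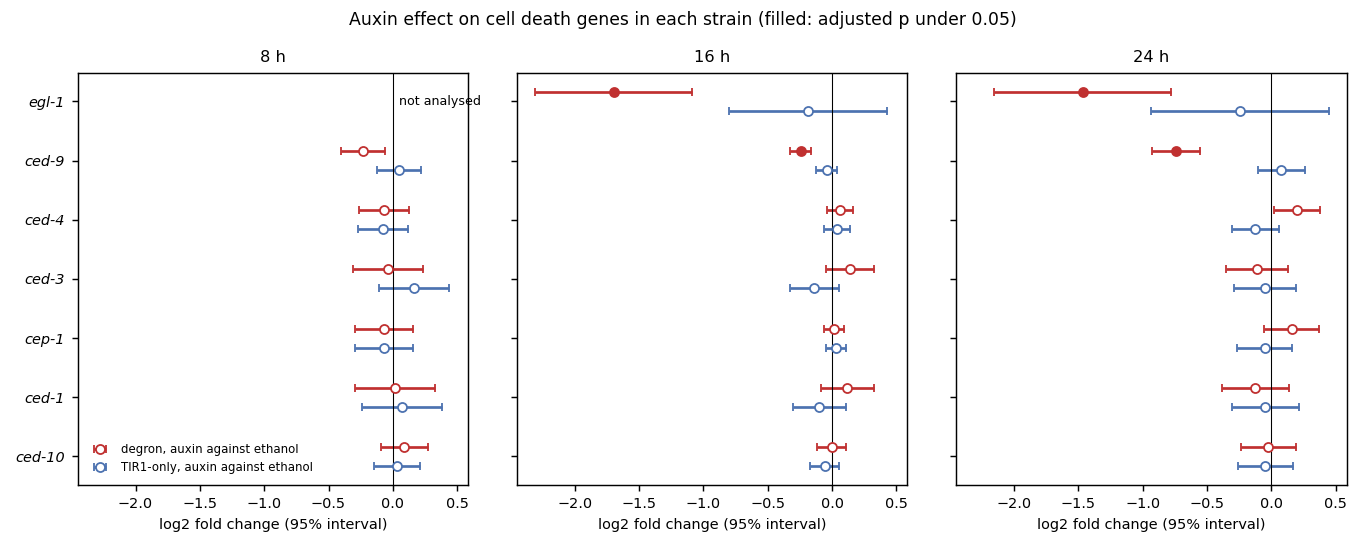
Log2 change between auxin and ethanol (horizontal axis) of each member in the degron strain (red) and the TIR1-only strain (blue) at 3 times, with 95% intervals and filled points for an adjusted p under 0.05. The filled points are egl-1 and ced-9 in the degron strain at 16 h (−1.70 and −0.24) and at 24 h (−1.47 and −0.74).

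No member passed in either control comparison. Auxin against ethanol in the TIR1-only strain gave 0 calls of 6, 7 and 7 members at 8, 16 and 24 h by limma. The shares of all genes called were 0.246%, 0.147% and 0.00961%. At an unadjusted p under 0.05 there were 0 members, beside 255 of 10971, 648 of 10173 and 255 of 10411 genes. The degron strain against the TIR1-only strain, both on ethanol, also gave 0 calls at each time, with 0.00911%, 0.0295% and 0.00961% of all genes called. Here too 0 members had an unadjusted p under 0.05, beside 101, 402 and 187 of all genes tested. The lowest point of that comparison was egl-1 at 24 h, with a log2 difference of −0.68 (95% interval −1.37 to 0.01, limma, unadjusted p = 0.0522). Its ethanol libraries at 24 h did not overlap between strains, at 0.501 to 1.31 CPM in the degron strain and 1.35 to 1.44 in the TIR1-only strain. Those of ced-4 did not overlap either, at 44.4 to 49.2 and 49.5 to 54.7 CPM. In the TIR1-only strain ced-4 also stood apart between plates at 24 h, at 47.5 to 47.9 CPM on auxin. With 3 libraries against 3, groups that stand apart allow no exact permutation p below 0.1. The share of all genes with such groups was not computed, so these separations are not read as differences. At 8 h the limma test of the difference between the strains' auxin effects passed for 0 of 6 members, with 0.00911% of all genes called. Its unadjusted p was under 0.05 for 1 member, ced-9, and for 378 of 10971 genes. At 16 h it passed for 2 of 7, egl-1 and ced-9, and at 24 h for 1 of 7, ced-9, beside 29.6% and 24.1% of all genes. With the replicate block at 24 h it passed for 2 of 7, ced-9 and ced-4, beside 41.6%.

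Per length of annotated exon, the pathway's RNAs spanned a wide range. In the degron strain on ethanol at 16 h, ced-3 stood at 56.8 ± 2.16 CPM per kb and ced-9 at 56.6 ± 0.278 (SD, n = 4), and their libraries overlapped. ced-4 followed at 22.8 ± 0.456, then cep-1 at 18 ± 0.313 and ced-10 at 16.7 ± 1.25, which overlapped each other, then ced-1 at 11.8 ± 1.22 and egl-1 at 1.97 ± 0.361. On auxin ced-3 stood at 62.4 ± 1.45 CPM per kb and ced-9 at 47.8 ± 2.89, and these no longer overlapped.

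At 24 h on ethanol ced-3 and ced-9 again overlapped, at 66.2 ± 7.96 and 63.9 ± 4.96 CPM per kb (SD, n = 3). On auxin they stood apart, at 61.1 ± 5.27 and 38.2 ± 2.89, with ced-4 next at 27.9 ± 2.69. In the TIR1-only strain the pair overlapped in all 6 groups of plate and time. ced-3 and ced-10 each overlap a non-coding RNA gene on the opposite strand, and whether the counting used the strand is not given in the sources used here, so reads of these pairs cannot be told apart.

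**Figure D4:**
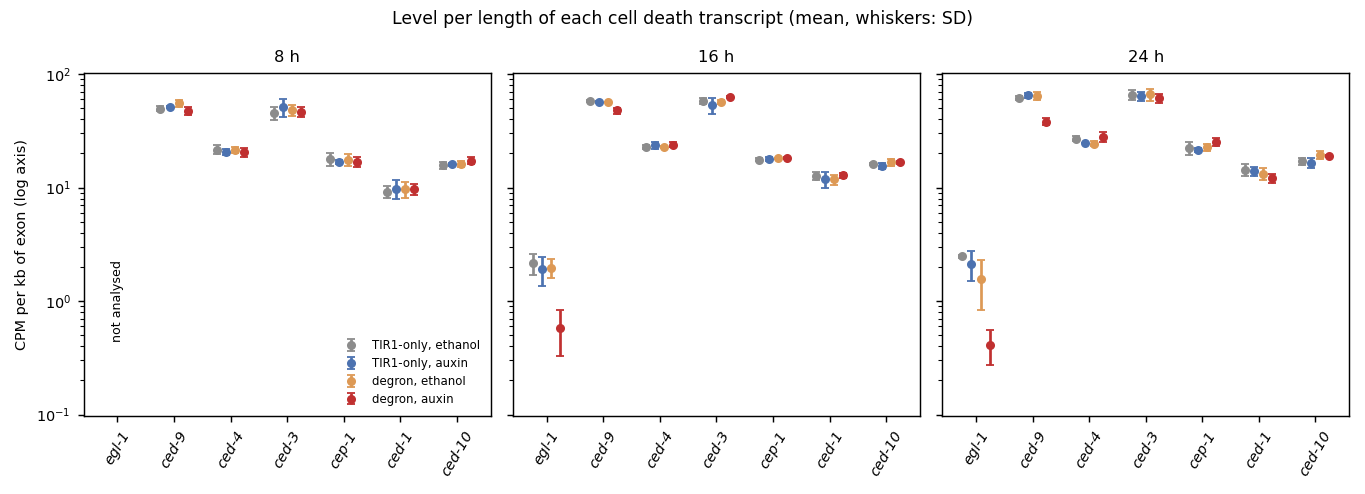
Mean level of each member in CPM per kb of exon (vertical log axis) in the 4 groups at each time, with the SD as whiskers. ced-9 and ced-3 share the highest place in every group other than the degron strain on auxin at 16 h and 24 h, where ced-9 lies at 47.8 and 38.2 below ced-3 at 62.4 and 61.1.

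In the TIR1-only strain on ethanol, mean ced-3 was 116, 148 and 168 CPM at 8, 16 and 24 h, ced-9 was 63.6, 74.7 and 79.2, and ced-1 was 45.0, 61.3 and 70.1. ced-10 was 26.0, 26.8 and 28.4 CPM. The times come from tables normalized separately, so these levels are set side by side without a test.

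Around the 8 members, 101 other genes of the worm's cell death pathways were read in 9 lists. At 16 h, 30 of the 92 tested rose and 14 fell in the degron strain, 47.8% against 42.2% of all genes. At 24 h, 24 rose and 23 fell, 51.1% against 38.4%, and with the replicate block 31 rose and 33 fell, 69.6% against 54%. The difference between the strains' auxin effects passed for 33.7% of the 92 at 16 h and 32.6% at 24 h, against 29.6% and 24.1% of all genes. Counts of a list are to be read against these shares. At 8 h 0 of 91 were called, and auxin alone called 0 at each time.

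More engulfment genes fell than rose. Of 14 tested, 2 rose and 7 fell at 16 h (median log2 change −0.16) and 2 rose and 9 fell at 24 h (median −0.41), or 3 and 9 with the replicate block. These were 64.3% and 78.6% of the list, and 85.7% with the block. In the test of the difference between the strains' auxin effects, 1 was higher and 3 were lower at 16 h. At 24 h 0 were higher and 4 lower in that test. Both are 28.6% of the list, near the 29.6% and 24.1% of all genes. ced-2, the CrkII homolog upstream of CED-10, rose from 56.0 ± 3.31 to 74.6 ± 1.84 CPM at 16 h (SD, n = 4, adjusted p = 4.15e-05) and from 57.6 ± 3.15 to 74.4 ± 5.22 at 24 h (SD, n = 3, adjusted p = 0.00564). ina-1, an integrin alpha subunit, fell from 33.2 ± 1.95 to 26.8 ± 1.43 CPM at 16 h (adjusted p = 3.81e-04) and from 40.9 ± 4.93 to 26.1 ± 4.67 at 24 h (adjusted p = 0.00145). psr-1, a phosphatidylserine receptor gene, fell at 16 h with a log2 change of −0.27 and at 24 h with one of −0.30, and the second did not pass with libraries centred on their median (adjusted p = 0.103). The members of the same step, ced-1 and ced-10, were not called.

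Of 22 phagosome maturation genes, 8 rose and 0 fell at 16 h by limma, and 4 rose and 4 fell at 24 h. That is 36.4% of the list at each time, below the 42.2% and 38.4% of all genes. With the replicate block at 24 h 7 rose and 9 fell, 72.7% against 54%. The strains' auxin effects differed for 22.7% of the list at 16 h and 27.3% at 24 h, against 29.6% and 24.1% of all genes. vps-34, the phosphatidylinositol 3-kinase of early phagosomes, rose from 29.2 ± 1.77 to 43.4 ± 1.82 CPM at 16 h (SD, n = 4, adjusted p = 6.95e-07) and from 35.7 ± 4.29 to 64.1 ± 7.82 at 24 h (SD, n = 3, adjusted p = 9e-05). vps-16, a subunit of the HOPS tethering complex, rose by 0.36 and 0.34 on the log2 scale, and vps-18 of the same complex rose by 0.32 at 16 h and changed by 0.23 at 24 h without passing (adjusted p = 0.244, and 0.0362 with the replicate block).

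Of 12 DNA degradation genes, 6 rose and 1 fell at 16 h, and 7 rose and 1 fell at 24 h, 58.3% and 66.7% of the list. The test of the difference between the strains' auxin effects passed for 41.7% and 50% of the list, against 29.6% and 24.1% of all genes. wah-1, the AIF homolog, rose from 54.3 ± 4.31 to 85.8 ± 1.83 CPM at 24 h (SD, n = 3, log2 change 0.66, adjusted p = 2.43e-05). cyn-13, a cyclophilin that works with the nuclease CPS-6, rose by 0.49 on the log2 scale at both times. crn-4, a nuclease, fell from 13.2 ± 1.34 to 9.98 ± 0.884 CPM at 16 h and from 16.5 ± 2.39 to 7.33 ± 0.583 at 24 h (log2 change −1.15, adjusted p = 2.88e-05).

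Of 12 checkpoint genes, 3 rose and 2 fell at 16 h and 2 rose and 3 fell at 24 h. That is 41.7% of the list at each time, close to the 42.2% and 38.4% of all genes. With the replicate block at 24 h 3 rose and 4 fell, 58.3% against 54%. The strains' auxin effects differed for 33.3% of the list at each time, against 29.6% and 24.1% of all genes. rad-51, the recombinase, rose by 0.47 and 0.59 on the log2 scale, to 135 ± 7.56 CPM at 24 h (adjusted p = 1.5e-04), while pch-2, a synapsis checkpoint gene, changed by −0.34 and −0.50 (adjusted p = 3.2e-05 and 2.24e-04). chk-1, the checkpoint kinase, fell from 115 ± 11.7 to 68.3 ± 6.38 CPM at 24 h (SD, n = 3, adjusted p = 3.9e-04).

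Among 8 regulators of CEP-1, 2 rose and 1 fell at 16 h and 1 rose and 1 fell at 24 h, 37.5% and 25% of the list, or 2 and 2 at 24 h with the replicate block (50%), each below the share of all genes. The test of the difference between the strains' auxin effects also passed for 37.5% and 25%, against 29.6% and 24.1% of all genes. ape-1, the iASPP homolog that inhibits CEP-1, fell from 230 ± 5.28 to 155 ± 8.64 CPM at 24 h (SD, n = 3, adjusted p = 4.06e-05). prmt-5, a methyltransferase that restrains CEP-1, rose by 0.40 at 24 h on the log2 scale, and by 0.19 at 16 h, where quantile normalization ended the call (adjusted p = 0.0905). sir-2.1, a deacetylase gene, fell at 16 h with a log2 change of −0.19 (adjusted p = 2.73e-04).

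Among 14 genes of physiological germ cell death, 5 rose and 2 fell at 16 h and 4 rose and 3 fell at 24 h, 50% of the list each time, or 5 and 5 at 24 h with the replicate block (71.4%). The strains' auxin effects differed for 42.9% of the list at 16 h and 14.3% at 24 h, against 29.6% and 24.1% of all genes. In that test 5 were higher and 1 lower at 16 h, and 0 were higher and 2 lower at 24 h. Thus no rise in this list at 24 h passed it without the replicate block. lin-45, the Raf of the germline MAP kinase pathway, rose by 0.32 at 16 h on the log2 scale, and its change of 0.26 at 24 h passed with the replicate block (adjusted p = 0.0869 without and 6.13e-04 with it, or 0.0119 with libraries centred on their median). lip-1, the phosphatase that turns this pathway off, fell from 109 ± 5.62 to 56.2 ± 9.48 CPM at 24 h (SD, n = 3, log2 change −0.97, adjusted p = 8.48e-05). ksr-2, a germline scaffold of the same pathway, rose by 0.24 at 16 h and by 0.40 at 24 h. Its rise at 24 h did not pass the test of the difference between the strains' auxin effects.

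Of 5 genes tested that set egl-1 transcription in somatic cells, 1 rose and 1 fell at 16 h and 1 rose and 2 fell at 24 h. These were 40% and 60% of the list, against 42.2% and 38.4% of all genes. The strains' auxin effects also differed for 40% and 60%, against 29.6% and 24.1% of all genes. tra-1, the sex determination factor that represses egl-1 in the HSN neurons, rose from 21.5 ± 0.818 to 42.8 ± 4.48 CPM at 16 h (SD, n = 4, adjusted p = 2.71e-07) and from 20.2 ± 2.71 to 41.8 ± 5.37 at 24 h (SD, n = 3, adjusted p = 4.62e-04). hlh-2, an E protein that activates egl-1 in the sisters of the NSM neurons, fell from 20.1 ± 0.898 to 16.6 ± 1.13 CPM at 16 h and from 20.2 ± 0.937 to 7.82 ± 1.54 at 24 h (adjusted p = 0.00286 and 1.23e-04). eor-2 fell at 24 h, from 22.2 ± 3.4 to 11.3 ± 1.23 CPM (adjusted p = 0.0013). Of 4 mitochondrial dynamics genes tested, 3 rose at 16 h and at 24 h, 75% of the list (with the replicate block at 24 h, 1 also fell). The test of the difference between the strains' auxin effects passed for 50% and 75% of these 4. Among them eat-3, the OPA1 homolog, stood at 178 ± 4.04 on ethanol and 308 ± 31.5 CPM on auxin at 24 h (adjusted p = 1.12e-05). The other caspase homolog tested, csp-1, had 1.07 ± 0.266 CPM on ethanol and 0.778 ± 0.155 on auxin at 16 h and was not called.

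**Figure D5:**
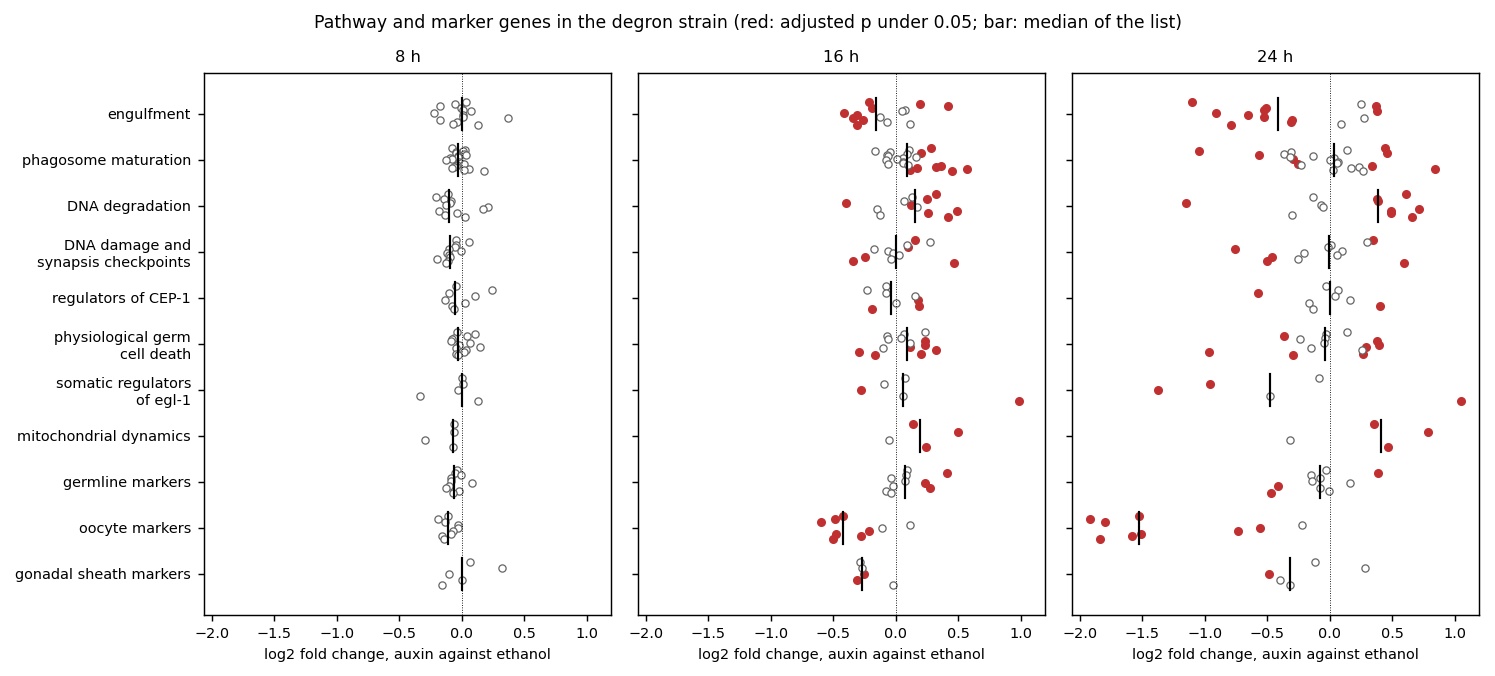
Log2 change between auxin and ethanol in the degron strain (horizontal axis) of each tested gene in 8 pathway lists and 3 marker lists at 3 times, in red where the adjusted p was under 0.05, with bars for list medians. At 24 h the oocyte markers centre on −1.53, engulfment genes on −0.41 and DNA degradation genes on 0.38, while no gene shown is red at 8 h.

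Across the 44 libraries, with log2 levels centred within each time, ced-9 was most like mcm-5 (Pearson r = 0.952), mcm-6 (0.948) and F02H6.2 (0.947) of 4920 genes compared. ced-3 was most like pgl-3 (0.928), Y41D4A.4 (0.928) and tcc-1 (0.926), ced-4 most like exo-1 (0.835), usip-1 (0.832) and cep-1 (0.810), and cep-1 most like pole-2 (0.852). ced-1 was most like arid-1 (0.895), and ced-10 most like spsb-1 (0.657). Among the members themselves the highest r were those of ced-4 with cep-1 and of ced-3 with ced-1 (0.752). These values describe libraries that share treatment, depth and scaling, and no test was made of them.

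In the authors' deposited table of fold changes, ced-9 had a log2 fold change of −0.25 at 16 h (FDR 6.13e-11) and −0.73 at 24 h (FDR 1.77e-18), and egl-1 had −1.79 (FDR 3.17e-11) and −2.27 (FDR 2.91e-08). The contrast behind the authors' deposited table is not named in it. Over all genes its values lay closest to the degron strain on auxin minus the mean of the 3 other groups, with a median absolute difference of 0.00333 at 16 h and 0.00646 at 24 h on the log2 scale.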

How the data were processed

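The members and the gene lists were chosen with earlier results of these data known. STAR, featureCounts, edgeR and the builds WBcel235 and ce11 are named in the submitters' processing notes. Versions, counting strand and the contrast of their tables are not given in the sources used here. The authors deposited log2 CPM per library, with 2 reads added before the logarithm as read from the values, and 100% of values were whole reads within 0.05 of a read once this was removed. Their deposited fold change tables also hold a likelihood ratio score and p-value columns, shown only where named. The plan had allowed for linear values and a pseudocount, and none was added to the deposited log2 values.

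Genes with at least 1 CPM in as many libraries as the smallest group were tested with limma 3.58.1 in R 4.3.3. The method was limma-trend, with 4 groups in 1 fit per time. It was run on simulated data, with a minimum recovery of changed genes required at 16 h and 24 h but not at 8 h. Comparisons were auxin against ethanol in each strain, the difference of these effects, and the strains on ethanol. CPM were read after removing the added reads. Intervals are 95%. Whether replicates came from separate cultures is not said in the labels, and p-values then measure only how far these libraries spread, which may be technical. Replicate numbers are in the labels. The numbers were taken to pair libraries at a time where every same-numbered pair correlated above 0.1. That held at 24 h (0.182 to 0.535). The lowest of these belonged to the TIR1-only libraries numbered 2. Their ethanol library correlated more (0.247) with an auxin library of another number. The rule did not hold at 8 h (−0.350 to 0.739) or 16 h (−0.306 to 0.708). Libraries numbered 4 still deviated together in each comparison at those 2 times (0.481 to 0.729). Blocked values therefore stand beside results at 24 h where they change a call. Gene positions and neighbours come from Ensembl release 115 (WBcel235), in which 11425 of the 11430 identifiers were found. Within each list, up to 3 genes of smallest adjusted p at 16 h or 24 h were named. Alternatives covered the added reads, filters, scaling, weights, voom on the recovered reads, the block, and leaving out libraries. The work used pandas 2.3.3 and scipy 1.17.1.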

Additional observations from a re-analysis of the deposited data

Results flagged for a closer look

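The difference between the strains' auxin effects passed for ced-9 at 16 h (−0.20 on the log2 scale) and at 24 h (−0.82), for egl-1 at 16 h (−1.51) and for mev-1, the gene next to ced-9, at 16 h (0.36), by limma with adjusted p-values of 0.0106, 3.93e-04, 0.0114 and 0.00813.

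In groups of 4, 1 library stood far from the other 3 for 7 of 60 combinations of gene and group tested. Chance gives about 1 in 20 of them. In the degron strain on auxin at 16 h, ced-3 and mev-1 were low in the library numbered 1, at 154 and 150 CPM, and ced-1 was high in the library numbered 3, at 67.6 CPM. In the degron strain on ethanol at 8 h, the library numbered 3 was low for ced-1, at 35.8 CPM, and high for ced-10, at 29.2 CPM. ced-4 was high at 49.7 CPM in the TIR1-only auxin library numbered 4 at 16 h, and mev-1 at 122 CPM in the degron auxin library numbered 4 at 8 h.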

How the results depend on the processing

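Of 4452 recomputed values of 235 gene results, 4206 kept their direction and their side of the threshold, 24 lost a call, 45 gained one, 177 uncalled values changed sign, and 0 called values did. For ced-9 the falls at 16 h and 24 h passed in every alternative run (log2 change −0.30 to −0.20 and −0.81 to −0.64), and so did those of egl-1 (−1.92 to −0.66 and −2.13 to −0.59). The difference between strains for egl-1 at 24 h passed with quantile normalization, quality weights and voom and its adjusted p ranged from 0.0225 to 0.185 over the alternatives. ced-3 at 16 h also passed in the strain difference with quality weights and without the TIR1-only auxin library numbered 2 (adjusted p = 0.0347 and 0.0423). The latter was the only 1 of 16 fits with 1 library left out that passed. Over those 16 the ced-3 difference ranged from 0.15 to 0.34 on the log2 scale. Against the mean of the 3 control groups, an alternative chosen after seeing the data, the ced-9 change at 8 h was −0.14.

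Counts over all genes were less stable where few were called. For auxin in the degron strain at 8 h, 31 genes became 20 at a minimum of 5 CPM, 285 with quality weights, 3 without the 4 deeper libraries numbered 4, and 9 to 32 with 1 library left out. For auxin alone, 27 at 8 h became 0 in the compared groups only and 0 without those 4 libraries (8 to 28 with 1 left out), 15 at 16 h became 9 to 21 with 1 left out, and 1 at 24 h became 0 at a minimum of 5 CPM. For the strain difference in the effect, 1 gene at 8 h became 3 with quality weights and 0 without those 4 libraries. For the strains on ethanol, 1 gene at 8 h became 0 in the compared groups only and with quality weights (0 to 1 with 1 left out), 3 at 16 h became 0 and 13 (1 to 2 with 1 left out), and 1 at 24 h became 2 with quality weights. With the replicate block at 24 h, auxin alone called 32 genes instead of 1, the strain difference 4332 instead of 2508, and the strains on ethanol 7 instead of 1, and auxin in the degron strain called 5619 instead of 3999. Beyond ced-4 and cep-1, the block changed no other call of a member. At 16 h, where not every numbered pair correlated, the block gave 4573 calls instead of 4288 for auxin in the degron strain and called 35 pathway genes higher and 14 lower instead of 30 and 14, and at 8 h it gave 42 calls instead of 31. The cause of these changes was not tested. Median centring moved the median of all genes by up to 0.107 at 24 h on the log2 scale, and depth limits egl-1, with 3 to 7 reads per degron library on auxin at 24 h.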
